A study of Mus musculus with 12 samples.

Results

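*Mreg*, *Adap2*, *Tmem86b*, *Vat1*, *Mtx3*, *Zfp445* and *Sh3bgrl2* were followed in hepatocytes of mice whose *Gata4* and *Gata6* alleles are floxed. These 7 genes were chosen from the same arrays because their log2 differences (labelled AAV-Cre minus AAV-GFP) were below 0. Their differences between the groups are therefore a description. Intervals and calls from the fit over all probes are given beside them for scale, and they are no independent test of these genes. Every probe annotated to their symbols was kept where its detection p was at most 0.05 on 1 or more arrays, which gave 7 of 10838 named genes, read by 12 of the 20561 probes kept. All 12 annotated probes met this rule. The last to meet it was *Tmem86b* probe ILMN_2488580, whose lowest detection p was 0.0491. The annotation covers only probes of the deposited value table, so further probes of these genes may exist on the array and were not analysed here.

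The labels give 6 arrays of mice injected with AAV8-Tbg-Cre and 6 of mice injected with AAV8-Tbg-GFP. Both groups carried the GATA4,6 fl/fl genotype on a C57BL/6 x 129Sv background, and were 2.5 to 4.5 months old. RNA was taken 2 weeks after intravenous injection. In both vectors the thyroxine-binding globulin (Tbg) promoter, which is active in hepatocytes, drove the insert, either Cre recombinase or the green fluorescent protein used as the control. The design therefore addresses excision in hepatocytes, which were enriched on a Percoll gradient before RNA extraction. The labels do not say that each sample came from a separate animal, so p-values measure the spread between these samples, which may be technical.

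GATA factors are zinc finger proteins that bind short DNA elements built around the letters GATA and act on transcription of hepatic and other endodermal genes. The 7 genes do not form 1 pathway. *Mreg* encodes melanoregulin, which acts in the transport of melanosomes and related lysosomal organelles, *Adap2* a GTPase-activating protein for ARF GTPases, and *Tmem86b* a lysoplasmalogenase that cleaves the vinyl ether bond of lysoplasmalogens. *Vat1* encodes a membrane protein of the quinone oxidoreductase family, *Mtx3* a metaxin of the mitochondrial outer membrane, *Zfp445* a KRAB zinc finger protein that maintains genomic imprints, and *Sh3bgrl2* a small protein with a thioredoxin-like fold.

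Because the 7 genes lay on the same side in a GATA excision experiment, their promoter windows were read for the GATA element. RefSeq (GRCm38.p6) gave 8 windows for the 7 genes, 2 of them for *Mreg*, each from 250 bases before to 50 bases after a transcription start. The letters AGATAA or AGATAG or TGATAA or TGATAG were searched on both strands. They were found in 3 of the 8 windows, of *Tmem86b*, *Vat1* and *Zfp445*, against 29.8% of all 32851 RefSeq windows of this length and 20.4% of the 11184 windows of named genes kept on the arrays. The windows of the 3 genes are shown with these matches in capitals, 5′ to 3′ on the strand of the gene. That of *Tmem86b* lies at chr7:4630433-4630732, minus strand, that of *Vat1* at chr11:101466150-101466449, minus strand, and that of *Zfp445* at chr9:122865957-122866256, minus strand.
Tmem86b: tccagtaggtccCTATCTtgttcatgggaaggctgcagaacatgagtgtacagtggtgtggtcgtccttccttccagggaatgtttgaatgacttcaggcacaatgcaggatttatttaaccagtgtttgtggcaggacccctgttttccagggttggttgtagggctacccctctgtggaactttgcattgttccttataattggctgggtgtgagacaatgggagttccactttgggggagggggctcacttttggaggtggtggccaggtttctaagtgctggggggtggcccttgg
Vat1: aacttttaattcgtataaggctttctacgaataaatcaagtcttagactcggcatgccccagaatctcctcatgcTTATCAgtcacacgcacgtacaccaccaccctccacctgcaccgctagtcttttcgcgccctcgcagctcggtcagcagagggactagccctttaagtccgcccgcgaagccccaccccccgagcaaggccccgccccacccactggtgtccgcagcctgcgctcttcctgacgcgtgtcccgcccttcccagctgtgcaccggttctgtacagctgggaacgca
Zfp445: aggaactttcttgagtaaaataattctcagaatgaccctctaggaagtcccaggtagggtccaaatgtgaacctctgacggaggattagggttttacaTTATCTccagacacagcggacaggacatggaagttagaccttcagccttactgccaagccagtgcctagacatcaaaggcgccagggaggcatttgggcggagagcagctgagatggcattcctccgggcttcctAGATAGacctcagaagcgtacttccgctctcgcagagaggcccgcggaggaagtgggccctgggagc
The match began at base -238 in *Tmem86b* and -175 in *Vat1*, both on the opposite strand, and at bases -152 (opposite strand) and -17 (gene strand) in *Zfp445*, with base -1 the last before the start. A match is a run of letters in the reference and not a measured binding site. The windows of *Mreg*, *Adap2*, *Mtx3* and *Sh3bgrl2* did not hold these letters.

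The exported arrays had median signals between 215.38 and 287.53 and each detected between 14318 and 16381 probes. The excised genes did not check the labels: *Gata4* lay at background (8.06 ± 0.27 on arrays labelled AAV-Cre, 7.87 ± 0.14 on AAV-GFP arrays, SD, n = 6 each), and *Gata6* probe ILMN_2868133 was higher in the arrays labelled AAV-Cre (11.59 ± 0.37 against 9.88 ± 0.23 log2 signal, limma adjusted p = 3.77e-04). The place of that probe relative to the deleted part was not stated in any source used here, and every direction below rests on the labels. AAV-Cre replicate 3 differed from the other 11 arrays in sex-linked transcripts, with *Xist* probe ILMN_1224091 at 13.20 against 7.59 to 7.93 elsewhere and *Eif2s3y* probe ILMN_1241001 at 7.75 against 11.53 to 11.89. The same array lay outside the other 11 in 2 of the 3 measured erythroid transcripts, in opposite directions. The globin gene *Hba-a1* was at 12.66 against 8.33 to 11.27 elsewhere, and the heme synthesis gene *Alas2* at 9.65 against 12.16 to 13.07. *Slc4a1*, near background, was at 8.08, inside the 7.70 to 8.28 of the other arrays. The summed erythroid level of that array, 7553 on the linear scale, lay inside the 6970 to 10981 of the AAV-GFP arrays. Differences of the 7 genes are also given without AAV-Cre replicate 3. Of 62 markers of hepatocytes and 7 other cell types, 40 were measured. The hepatocyte genes *Hnf4a* and *F10* were detected on all 12 arrays, with *Hnf4a* at 14.06 ± 0.20 in the arrays labelled AAV-Cre and 13.91 ± 0.20 in AAV-GFP arrays. Transcripts of other liver cells were present too, such as the endothelial lectin gene *Clec4g* at a mean of 12.14 in the arrays labelled AAV-Cre and 12.18 in AAV-GFP arrays. By limma 0 of the 40 passed and 2 had an unadjusted p under 0.05, and the summed marker levels of the 2 groups overlapped for all 8 cell types. Of the 4 measured stellate cell and fibroblast markers, 3 lay below 0, as did the 7 genes, and 1 above, with a list median of -0.10. Among the 3, *Reln* was at 10.03 ± 0.50 in the arrays labelled AAV-Cre and 10.91 ± 0.29 in AAV-GFP arrays (difference -0.88, limma adjusted p = 0.205). The summed level of the list, on the linear scale, ran from 2284 to 6690 in the arrays labelled AAV-Cre, against 3616 to 6210 in AAV-GFP arrays. The bile duct marker *Sox9* was at 0.49, and *Krt7*, the other one measured, at -0.05. Of the 10 measured Kupffer cell and macrophage markers, 9 lay below 0 and 1 above, with a list median of -0.048. Of these 10, 0 had an unadjusted p under 0.05. The endothelial marker *Stab2* was at 0.47, while 7 of the 10 endothelial markers lay below 0, with a list median of -0.014. The limma intervals of *Sox9* and *Stab2* both included 0. The part of these markers in the values of the 7 genes was not tested.

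*Mreg*, the melanosome and lysosome transport gene, had the widest gap between the groups. On the log2 scale of quantile-normalized signal, probe ILMN_2976159 had a lowest, median and highest value of 10.04, 10.70 and 11.07 on the arrays labelled AAV-Cre, against 11.66, 11.78 and 12.18 on the AAV-GFP arrays. Every array labelled AAV-Cre lay below every AAV-GFP array, with 0.59 between the nearest pair. The difference was -1.24 (SE 0.17, 95% interval -1.60 to -0.89), or 2.37-fold lower in the arrays labelled AAV-Cre. In RNA from a cell population, fewer cells that express a gene and less RNA per cell cannot be told apart. The dimmer probe ILMN_2526249 ranged from 8.31 to 8.72 with a median of 8.59 in the arrays labelled AAV-Cre, against 9.00 to 9.60 with a median of 9.18 in AAV-GFP arrays. It showed the same separation by 0.28, and a difference of -0.68 (SE 0.10), or 1.60-fold lower. Both probes were detected on all 12 arrays, and both were lowest on AAV-Cre replicate 6 and highest on AAV-GFP replicate 1. After group means were removed, they followed each other over the 12 arrays (Pearson r = 0.80).

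**Figure D1:**
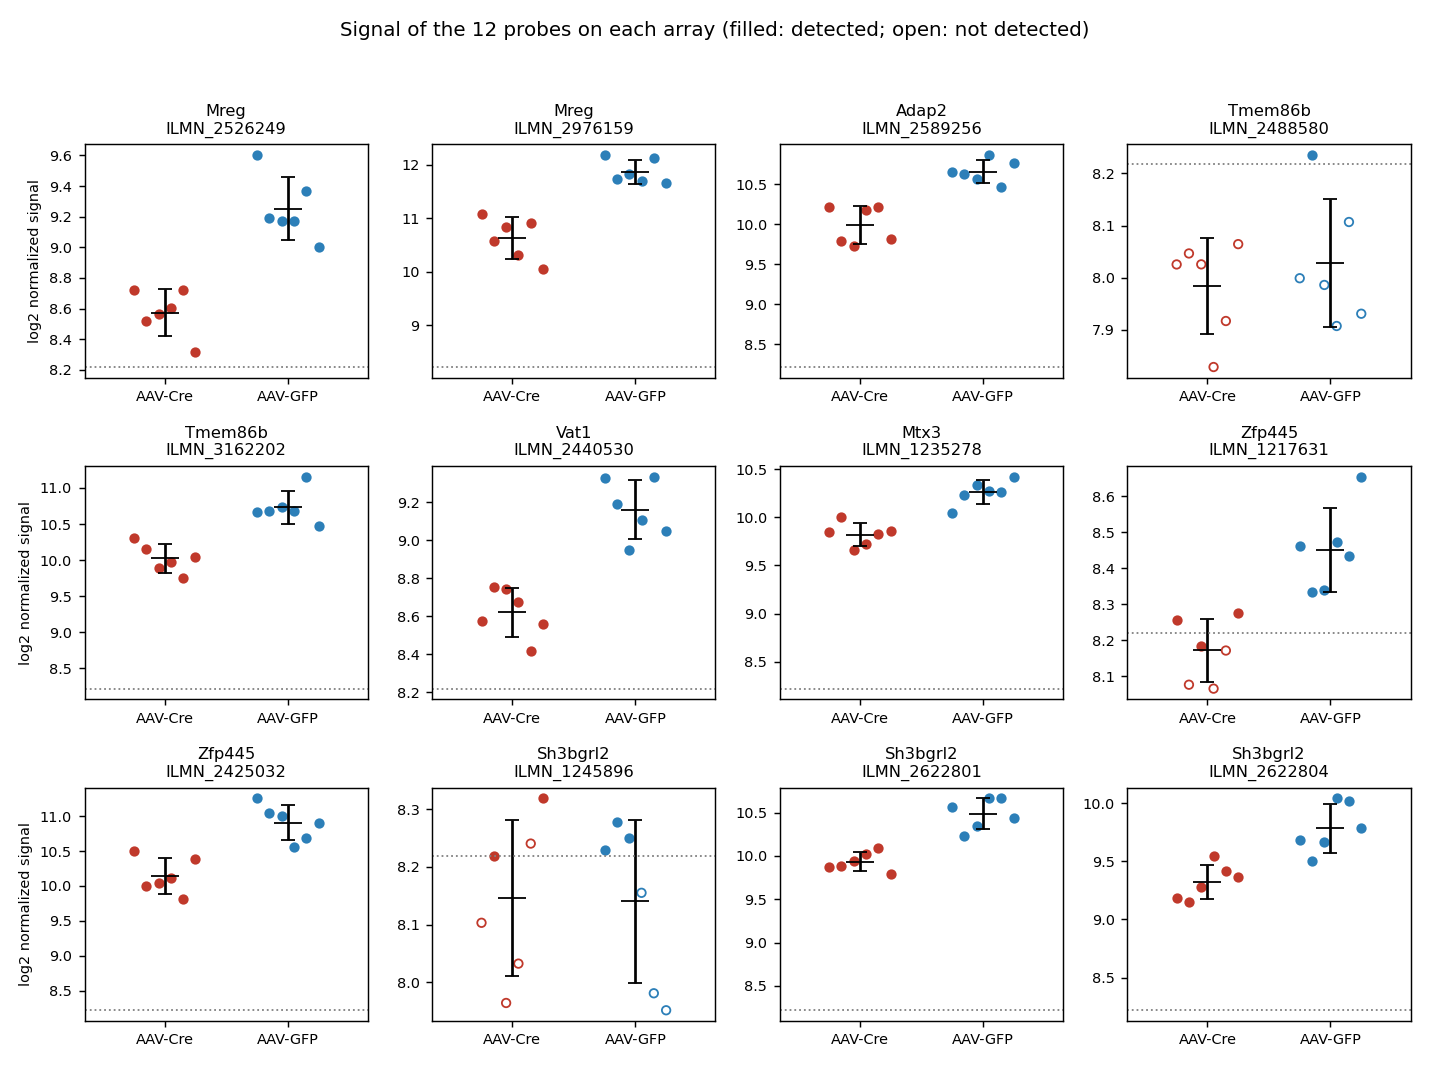
Log2 quantile-normalized signal of the 12 probes on the 6 arrays labelled AAV-Cre (red, left) and the 6 AAV-GFP arrays (blue, right), in replicate order, with the group mean and SD in black. Filled points were detected (p at most 0.05), open points were not, and the dotted line is the mean lowest detected value of 8.22. The groups are separate in 9 of the 12 panels, and the remaining 3 are *Tmem86b* ILMN_2488580, *Sh3bgrl2* ILMN_1245896 and *Sh3bgrl2* ILMN_2622804.

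*Adap2*, whose product acts on ARF GTPases, was read by probe ILMN_2589256. Its lowest, median and highest log2 signals were 9.73, 10.00 and 10.22 in the arrays labelled AAV-Cre, against 10.47, 10.65 and 10.87 in the AAV-GFP arrays. The groups did not overlap, with a gap of 0.25, and the difference was -0.67 (SE 0.11), or 1.59-fold lower. *Tmem86b*, the lysoplasmalogenase gene, ran from 9.75 to 10.31 with a median of 10.01 in the arrays labelled AAV-Cre at probe ILMN_3162202, against 10.47 to 11.16 with a median of 10.68 in AAV-GFP arrays. The groups were separate by 0.16, and the difference was -0.71 (SE 0.11), or 1.64-fold lower. The second probe of *Tmem86b*, ILMN_2488580, was detected on 0 of 6 arrays labelled AAV-Cre and 1 of 6 AAV-GFP arrays, with means of 7.98 and 8.03 at background. No fold can be read from it.

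*Vat1*, the quinone oxidoreductase-like gene, gave 8.42, 8.62 and 8.75 (lowest, median and highest log2 signal) in the arrays labelled AAV-Cre, against 8.95, 9.15 and 9.33 in the AAV-GFP arrays at probe ILMN_2440530. The groups were separate by 0.19, with a difference of -0.54 (SE 0.08), or 1.45-fold lower. *Mtx3*, the metaxin gene, ran from 9.66 to 10.00 with a median of 9.84 in the arrays labelled AAV-Cre, against 10.04 to 10.42 with a median of 10.27 in AAV-GFP arrays at probe ILMN_1235278. Only 0.04 lay between the nearest arrays, AAV-Cre replicate 2 and AAV-GFP replicate 1, and the difference was -0.44 (SE 0.08), or 1.36-fold lower. *Vat1* and *Mtx3* were each read by 1 probe, so neither has a second probe to set beside it.

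*Zfp445*, the imprint maintenance gene, gave 9.82, 10.07 and 10.50 in the arrays labelled AAV-Cre, against 10.56, 10.95 and 11.26 in the AAV-GFP arrays at probe ILMN_2425032. AAV-Cre replicate 1 came within 0.06 of AAV-GFP replicate 4, and the difference was -0.77 (SE 0.13), or 1.70-fold lower. Probe ILMN_1217631 lay near background. It was detected on 3 of 6 arrays labelled AAV-Cre and on 6 of 6 AAV-GFP arrays, with means of 8.17 ± 0.09 and 8.45 ± 0.12 and a difference of -0.28 (SE 0.07). Its groups were also separate by 0.06, and the signal that remains at background compresses its fold.

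*Sh3bgrl2*, which encodes the thioredoxin-fold protein, had 3 probes, of which 1 lay at background and gave no readable fold. Probe ILMN_2622801 ran from 9.79 to 10.09 with a median of 9.91 in the arrays labelled AAV-Cre, against 10.23 to 10.66 with a median of 10.50 in AAV-GFP arrays, a difference of -0.55 (SE 0.09) or 1.47-fold lower without overlap. Probe ILMN_2622804, of the same transcript accession, ran from 9.15 to 9.54 in the arrays labelled AAV-Cre, against 9.50 to 10.04 in AAV-GFP arrays. AAV-Cre replicate 4 overlapped AAV-GFP replicate 2 there, and the difference was -0.46 (SE 0.10). These 2 probes followed each other within groups (r = 0.79). Probe ILMN_1245896, annotated to another accession, was detected on 2 of 6 arrays labelled AAV-Cre and 3 of 6 AAV-GFP arrays, and its means of 8.15 and 8.14 lay at background (difference 0.01, SE 0.08).

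In the limma fit over all probes, 29 of 20561 (0.141%) were called lower in the arrays labelled AAV-Cre at an adjusted p under 0.05, and 34 (0.165%) in either direction. The called probes included 8 of the 12, at least 1 for each of the 7 genes. Since the genes were chosen on this contrast, that count restates the choice. With the replicate number added to the fit as a block, 5 of the 12 were called, from *Mreg*, *Zfp445* and *Sh3bgrl2* only. With arrays scaled by their medians in place of quantile normalization, 10 probes were called in all and 0 of the 12, while the differences of the 7 brightest probes lay between -1.19 and -0.39. Likewise 9 of the 12 probes were separate between the groups, against 70 of all probes (0.34%) that lay lower without overlap. Before normalization, in the exported signal, 2 of the 12 probes were separate (both brighter *Sh3bgrl2* probes), against 0.0632% of all probes. With arrays scaled by their medians, 6 were separate, against 0.16% of all. Exported *Mreg* signals at ILMN_2976159 ran from 951 to 2742 in the arrays labelled AAV-Cre, against 2512 to 5751 in AAV-GFP arrays, so these ranges overlapped.

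**Figure D2:**
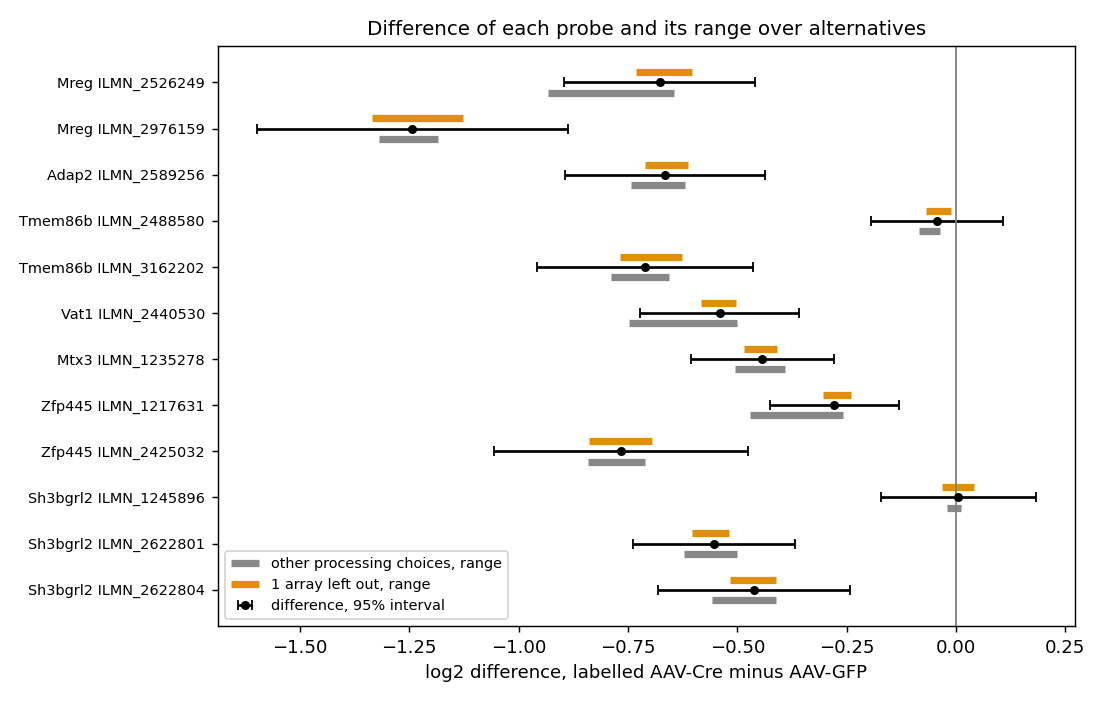
Log2 difference (labelled AAV-Cre minus AAV-GFP) of each of the 12 probes with its 95% interval from limma (black), its range when each of the 12 arrays was left out in turn (orange) and its range over the other processing choices (grey). Differences at the brighter *Mreg* probe stayed between -1.33 and -1.13 with 1 array left out, and the probes at background, *Tmem86b* ILMN_2488580 and *Sh3bgrl2* ILMN_1245896, had intervals that included 0.

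AAV-Cre replicate 3 was the array that stood apart in sex-linked transcripts and in the erythroid genes *Hba-a1* and *Alas2*. Without that array, the differences were -1.28 and -0.67 for the *Mreg* probes, -0.61 for *Adap2*, -0.69 for *Tmem86b* ILMN_3162202 and -0.56 for *Vat1*. They were -0.41 for *Mtx3*, -0.75 for *Zfp445* ILMN_2425032, and -0.56 and -0.45 for the brighter *Sh3bgrl2* probes. The number of the 12 probes called fell to 2 when AAV-Cre replicate 6 was left out. Dropping AAV-GFP replicate 2 or 4 left 3 probes called, dropping AAV-GFP replicate 3 or 5 left 4, and dropping any of AAV-Cre replicates 3, 4 and 5 or the AAV-GFP replicate 6 left 5.

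Genes with related functions were read next, to see whether the lower signals extended to the processes the 7 genes belong to. The 8 lists held 216 genes, of which 160 were measured beside the 7. Measured means that a probe was detected on 1 or more arrays, so some of these genes lay near background. A lower signal can hardly show there. By limma 1 of the 160 was called, and 5 (3.12%) had an unadjusted p under 0.05, of which 4 were lower, against 653 of all 10838 named genes (6.03%), of which 326 were lower. Over all named genes, 23 were called at their brightest probe (4 higher, 19 lower) and the median difference was 0.00081. The called gene was *Nqo2*, a quinone reductase, from the list around *Vat1*. Its brightest probe averaged 12.42 ± 0.12 in the arrays labelled AAV-Cre and 13.05 ± 0.11 in AAV-GFP arrays (SD, n = 6 each), a difference of -0.63 (limma adjusted p = 0.00242), and all 3 of its probes were called. The other 12 measured genes of the *Vat1* list, among them the mitochondrial fusion genes *Mfn1*, *Mfn2* and *Opa1*, did not pass, and the list's median was -0.0036. With arrays scaled by their medians *Nqo2* was at -0.57 and did not pass (adjusted p = 0.187).

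Around *Mreg*, 33 genes of melanosome and lysosome-related organelle transport were measured beside it and 0 passed, with a median difference of 0.01. The lowest p belonged to *Lamp1*, a lysosomal membrane glycoprotein gene, at 14.38 ± 0.12 in the arrays labelled AAV-Cre and 14.84 ± 0.17 in AAV-GFP arrays (difference -0.46, limma adjusted p = 0.0581). *Bloc1s2*, a subunit of the BLOC-1 complex, followed with -0.15 (adjusted p = 0.933). Of 24 ArfGAP and ARF genes beside *Adap2*, 0 passed and 1 had an unadjusted p under 0.05. That gene was *Agap1*, an ArfGAP, at 9.80 ± 0.25 in the arrays labelled AAV-Cre and 9.51 ± 0.19 in AAV-GFP arrays (difference 0.30), and *Agap3*, of the same family, was at 0.13. In the list around *Tmem86b*, 0 of 18 genes of plasmalogen and ether lipid metabolism passed, and 0 had an unadjusted p under 0.05. The 2 with the lowest p there were *Selenoi*, an ethanolamine phosphotransferase gene (-0.31), and *Pla2g15*, a lysosomal phospholipase gene (-0.31). Of the 18 genes, 9 lay above 0 and 9 below, the highest being *Tmem86a* at 0.39.

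**Figure D3:**
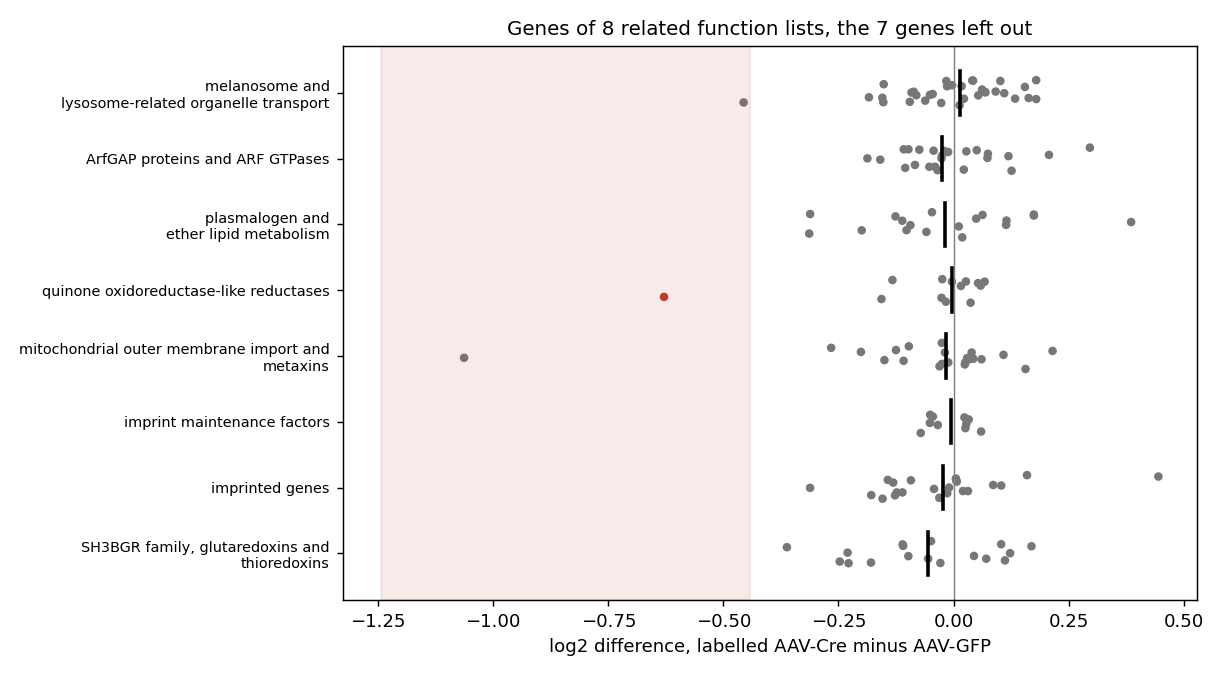
Log2 difference (labelled AAV-Cre minus AAV-GFP) of each measured gene in 8 function lists, at its brightest probe, with the list median as a black bar. Red marks the called gene *Nqo2*, and the shaded band spans the differences of the brightest probes of the 7 genes, from -1.24 to -0.44. The grey point at -1.06 is *Tomm22*, named here after its values were seen, whose SD was 1.20 in the arrays labelled AAV-Cre and 1.52 in AAV-GFP arrays.

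No gene passed in the lists around the remaining genes. Of 23 genes of mitochondrial outer membrane import and metaxins beside *Mtx3*, 0 passed and 0 had an unadjusted p under 0.05, with a median of -0.02. *Tomm40l*, a paralogue of the import channel gene, was at -0.27 and *Chchd6*, of the mitochondrial contact site complex, at 0.21. Beside *Zfp445*, 10 imprint maintenance factors had differences between -0.07 and 0.06, and 0 passed or had an unadjusted p under 0.05. *Ctcf*, the insulator protein gene, was at 0.06 and *Cbx3*, of heterochromatin, at -0.05. Among 22 imprinted genes 0 passed and 0 had an unadjusted p under 0.05. Several of them lay near background, such as *Meg3* and *Rian*. Each of these was detected on 0 of 6 arrays labelled AAV-Cre and 1 of 6 AAV-GFP arrays, so the list says little about them. *Slc38a4*, an amino acid transporter gene, was at -0.31 and *Peg3*, a zinc finger gene, at 0.44. Of 17 genes of the SH3BGR family, glutaredoxins and thioredoxins beside *Sh3bgrl2*, 0 passed and 1 had an unadjusted p under 0.05, *Txnl4a*, a splicing factor gene of the thioredoxin fold, at -0.36 (adjusted p = 0.479). *Txn1*, thioredoxin itself, was at -0.18 (adjusted p = 0.996).

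The nearest measured protein-coding genes on either side were set beside the 7, since the choice did not use them. Up to 5 genes without a named probe lay between. Of 14 neighbours 0 were called by limma, and 6 (42.9%) had an unadjusted p under 0.05, 2 higher and 4 lower, against 6.03% of all named genes. Their median difference was -0.05. *Mreg*, on chromosome 1, lay between the fibronectin gene *Fn1* (0.29, 95% interval 0.02 to 0.57) and the peroxisomal reductase gene *Pecr* (0.13, -0.06 to 0.32), against its own difference of -1.24. *Bckdhb*, a subunit gene of the branched-chain ketoacid dehydrogenase and the nearest measured after *Sh3bgrl2* on chromosome 9 with 2 genes between, was the highest of the 14 at 0.46 (0.17 to 0.75). *Rnd2*, adjacent to *Vat1* on chromosome 11, was the lowest at -0.36 (-0.60 to -0.12), near background and detected on 3 of 12 arrays. *Tcaim* (-0.19, 1 gene between) and *Tmem42* (-0.25, 5 genes between) were the nearest measured to *Zfp445*, and *Tent2* (-0.25, 1 gene between) followed *Mtx3*. The other 7 neighbours ran from -0.15 to 0.18. The difference between a gene and its neighbours was not tested.

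**Figure D4:**
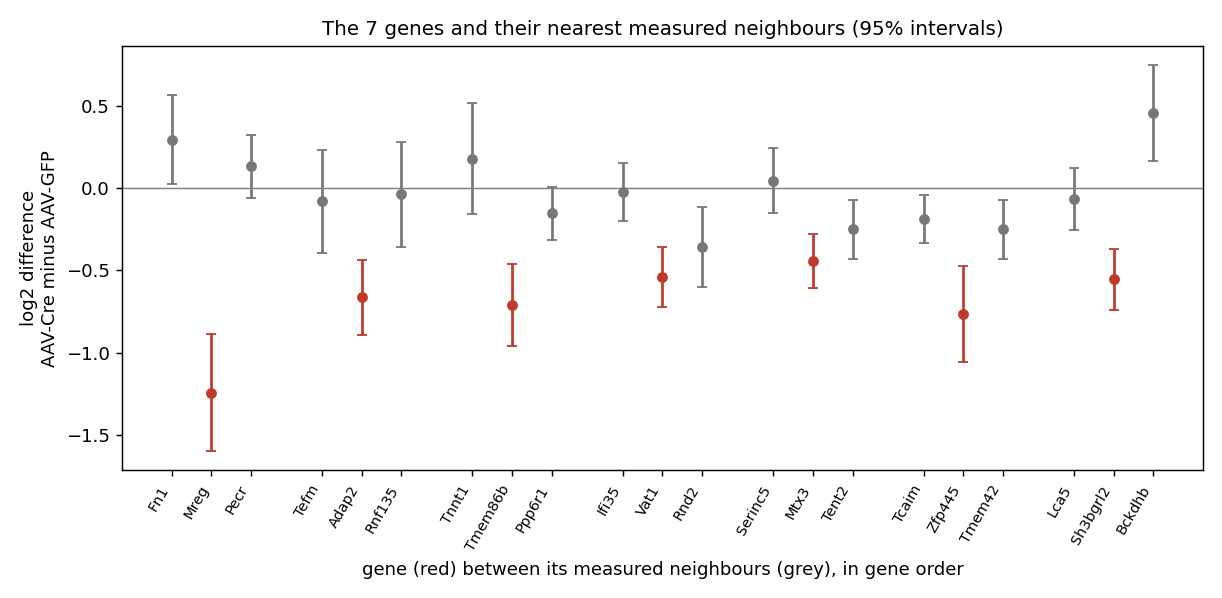
Log2 difference (labelled AAV-Cre minus AAV-GFP) with its 95% interval from limma, for each of the 7 genes at its brightest probe (red). Grey points show the nearest measured protein-coding gene on either side. Each of the 7 stands between its neighbours in chromosome order, and the 7 follow the order in which the text first names them. The grey points lie between -0.36 and 0.46, and the red points between -1.24 and -0.44.

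Whether the 7 genes varied together from array to array was asked within the groups, which the choice of genes did not use. The group mean of each gene's brightest probe was removed, and the 21 pairs were correlated over the 12 arrays. Pearson r lay between -0.61 and 0.44, with a median of 0.04. By permutation of arrays within groups, 0 of 21 pairs had an adjusted p under 0.05 and 1 had an unadjusted one. That pair was *Zfp445* and *Sh3bgrl2*, which ran opposite to each other (r = -0.61, permutation p = 0.0482, adjusted p = 0.902, Spearman rho = -0.71, permutation p = 0.018, adjusted p = 0.379). Without the 2 arrays farthest from the *Zfp445* median its r was -0.88. The most positive pair was *Tmem86b* and *Vat1* (r = 0.44, permutation p = 0.184, adjusted p = 0.902, rho = 0.33, permutation p = 0.314, adjusted p = 0.793), with r = 0.41 without the 2 farthest arrays. *Mreg* and *Adap2* were at r = 0.10. With arrays scaled by their medians in place of quantile normalization, all 21 pairs were above 0 and the median r was 0.49, so the covariation of these genes depended on the scaling.

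**Figure D5:**
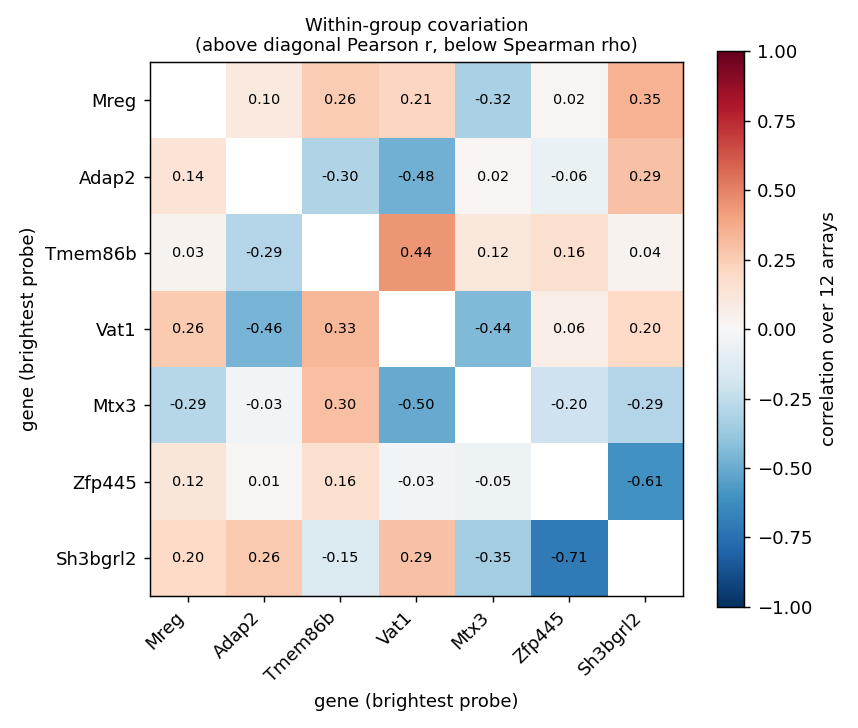
Correlation of the 7 genes over 12 arrays after each gene's mean in the arrays labelled AAV-Cre and in the AAV-GFP arrays was removed, with Pearson r above the diagonal and Spearman rho below it. Red is positive and blue negative. The strongest cell is *Zfp445* with *Sh3bgrl2*, at r = -0.61 and rho = -0.71, and the median r over the 21 pairs was 0.04.

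The genes whose signals were most like each of the 7 over the 12 arrays, after group means were removed, were taken from the 10838 named genes. As the highest of that many correlations they are descriptions, and the arrays share their scaling. The nearest to *Mreg* were 1700003H04Rik (r = 0.91), detected on 3 arrays, and *Ctu2* (r = 0.90). For *Adap2* they were *Phtf2* (r = 0.93) and *Zfp397* (r = 0.88), and for *Tmem86b* *H2-Q8* (r = 0.94) and *Ehbp1l1* (r = 0.90), detected on 1 array. *Vat1* was nearest to *Serpina11* (r = 0.96) and *Itgb3bp* (r = 0.90, detected on 8 arrays). *Mtx3* was nearest to *Rab37* (r = 0.88, detected on 4 arrays) and *Zfc3h1* (r = 0.87). *Zfp445* was nearest to *Fam171a1*, detected on 3 arrays, and *Kdm3a* (both r = 0.89). For *Sh3bgrl2* they were *Idh1*, the cytosolic isocitrate dehydrogenase gene (r = 0.94), and *Exoc5* (r = 0.84, detected on 5 arrays). The genes given here without a detection count were detected on all 12 arrays. None of these 14 genes was among the 7, and none was called by limma between the groups.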

How the data were processed

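Hepatocyte RNA of 12 samples (6 AAV-Cre, 6 AAV-GFP, grouped by their titles) was hybridised to Illumina MouseWG-6 v2 bead arrays. The authors exported probe signals, an intensity on a linear scale with background left in, and a detection p-value per probe and array from GenomeStudio, after TargetAmp-Nano labelling of RNA of high integrity. In the deposited value table the intensities had been quantile-normalized between arrays by the authors, with undetected probes removed. The study used SAM, and limma, a moderated test for the same unit, was used here.

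Exported signals of 45281 probes were quantile-normalized and put on the log2 scale, and probes with a detection p-value above 0.05 on all 12 arrays were removed (20561 kept). Gene symbols came from the platform annotation, where 16568 kept probes had 1 symbol (10838 genes) and 3993 were unnamed here. Groups were compared by limma 3.58.1 in R 4.3.3 (lmFit, eBayes, two-sided, Benjamini-Hochberg over all kept probes). On simulated data for this comparison, run on the 20561 probes, 46 of 50 probes changed by -1 on the log2 scale were recovered. Changes smaller than 1 were not simulated, so recovery at the size of most differences given here is not known. Correlations within groups used 100000 two-sided permutations. RefSeq promoters came from GRCm38.p6.

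The 7 genes and the function lists were chosen with earlier results of these data known. Named genes were all probes of the 7, the called genes of each list or otherwise the 2 with the lowest p, measured neighbours in chromosome order, and the 2 most correlated genes. The probe of a gene was its brightest by mean over all arrays. Array number limits the precision. The alternatives were median scaling, normexp correction with an offset of 50, the deposited value table, detection on at least 6 arrays, no filter, the replicate number as a block, array quality weights and leaving out each array.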

Additional observations from a re-analysis of the deposited data

How the results depend on the processing

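With arrays scaled by their medians, 10 probes were called in all in place of 34, 0 of the 12 probes in place of 8, and 0 list genes other than the 7 in place of 1, and the median r of the 21 pairs was 0.49 in place of 0.04. The cause was not tested. With the replicate number as a block, 20 probes and 5 of the 12 were called, these 5 from *Mreg*, *Zfp445* and *Sh3bgrl2*, while *Adap2*, *Tmem86b*, *Vat1* and *Mtx3* had no called probe (limma adjusted p = 0.0629, 0.132, 0.107 and 0.119 for the brightest probe of each gene in that order). Same-numbered arrays correlated with r from -0.20 to 0.40, above 0.1 for 4 of 6 numbers, and 7 of the 12 arrays correlated best with their own number, a hint of pairing in the data. The labels do not say what a number shares and 2 of the 6 correlations were below 0, so the fit without the block was kept. With each array left out in turn, between 19 and 42 probes were called, between 2 and 7 of the 12, and 1 or 2 list genes, the second being *Lamp1* without AAV-GFP replicate 1 (limma adjusted p = 0.024). The median r then lay between -0.08 and 0.08. The other settings kept these counts within 1.5 times. The sign of the difference stayed under every setting run at all probes except *Sh3bgrl2* ILMN_1245896, at background. Normexp correction moved *Mreg* ILMN_2526249 to -0.93, *Vat1* to -0.75 and *Zfp445* ILMN_1217631 to -0.47. Signal near background limits the dim probes, since a fold is compressed there.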
